A study of Mus musculus with 32 samples.

Results

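The genes described here are 9 mouse granzymes, Gzma, Gzmb, Gzmc, Gzmd, Gzme, Gzmf, Gzmg, Gzmk and Gzmm, and perforin, Prf1. They were taken by gene symbol, and all 10 were found among the 33654 rows with a gene symbol in the deposited RNA-seq tables. The study followed mouse mammary tumors of the MMTV-PyMT model, in which the polyoma middle T oncogene is driven by the mouse mammary tumor virus promoter. It asked how tumor cells and CD8 T cells change as tumors grow, and what the acyltransferase gene Mogat1 does in tumors facing immune attack. CD8 T cells were collected from tumors at weeks 2, 3 and 4 of growth, with 3 libraries a week. CD8 T cells were also collected from xenografts of MMTV-PyMT tumor cells carrying the hairpin shMogat1 (genotype given as Mogat1 knockdown) and from xenografts carrying the control hairpin shCTRL (genotype given as WT), with 3 libraries each. Tumor cells of the same settings, 11 libraries over the weeks and 6 of the xenografts, serve as background. The labels give no age, sex or host strain of the animals, no sorting scheme and no time for the xenografts, and only 1 hairpin against Mogat1 is named.

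Granzymes are serine proteases that killer T cells and natural killer (NK) cells store in secretory granules. When such a cell meets its target, the granules are released, perforin forms pores in the target's membrane, and granzymes enter and cut proteins whose loss kills the cell. Granzyme B cuts after aspartate and activates caspases, granzymes A and K cut after basic residues, and granzyme M prefers methionine and leucine. Gzmc to Gzmg are rodent genes next to Gzmb, made by strongly activated killer cells, and few of their substrates are known.

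The targeted gene did not follow the labels of the xenograft set. Mogat1 stood at 0.624, 0.146 and 0.531 TPM in tumor cell libraries labelled shMogat1, and was listed at 0 TPM in each of the 3 libraries labelled shCTRL. All of these values lie below 1 TPM, where a value rests on few reads, and Mogat1 was not tested there. TPM is a read number scaled for gene length and for the library total. Epcam is an epithelial surface protein that marks these tumor cells. It was at 28.4 to 30.8 TPM in tumor cell libraries labelled shMogat1 and at 0.560 to 0.864 TPM in those labelled shCTRL. In tumor cells of the weeks, scaled separately, Epcam averaged 305, 458 and 529 TPM at weeks 2, 3 and 4. In CD8 T cell libraries it was at 28.3 to 30.3 TPM under the label shMogat1 and at 2.82 to 4.57 TPM under shCTRL. The defining marker was thus nearly absent from the tumor cells labelled shCTRL. In those labelled shMogat1 it was far below the tumor cells of the weeks. The groups of this set are therefore named by their labels throughout. The CD8 T cell libraries carried T cell markers: Cd3e was at 480.1 to 486 TPM in those labelled shMogat1 and at 434 to 489 TPM in those labelled shCTRL. Depth, estimated from the steps between TPM values, was 31.6 to 52.1 megareads in the CD8 T cell libraries of the time course and 35.8 to 48.8 megareads in those of the xenografts. Nothing says that replicates came from separate animals, so p-values measure only the spread between these libraries. In the xenograft tables, the median variance between replicates was 2.31 to 3.23 times the counting noise of single reads, against 6.76 to 25.8 times in the tables over the weeks. Only genes with recovered whole reads entered these ratios, and such genes carried 2.30% to 4.48% of summed TPM, depending on the library. Both mates of a fragment were often counted (67.6% of values of 1 to 10 reads were even), which alone raises variance above single-read noise. The xenograft replicates may therefore differ by little beyond counting, and the spread between animals behind their p-values was not tested.

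In CD8 T cells labelled shMogat1, the genes of the Gzmb cluster and perforin were lower than in CD8 T cells labelled shCTRL, and granzymes A, K and M did not pass the test. With limma on log2(TPM + 1), 7 of the 10 genes fell at an adjusted p under 0.05, where 26.2% of the 13742 genes tested fell, 16.6% rose and 42.8% changed in either direction. The median difference was -1.61 over the 10 genes and -0.05 over all genes tested, on the log2 scale. Gzmd, Gzme and Gzmg passed the filter of 1 TPM in 3 libraries through the libraries labelled shCTRL alone, so they could enter the test only by being lower in the other group. Their tests, and their part in this count and median, support no direction. With any 1 shCTRL library left out these 3 genes no longer passed the filter and were not tested, while Gzmb, Gzmc, Gzmf and Prf1 kept their calls. That is 4 of the 7 genes then tested. Of the libraries labelled shMogat1 only replicate 2 reached 1 TPM for Gzmf, so Gzmf too needed the shCTRL libraries to pass the filter. Its test and its part in these counts and the median support no direction either. Without shCTRL replicate 3, for example, 3072 of all 13460 genes tested fell.

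Perforin and granzyme B, the pair central to granule killing, fell by a like amount. Prf1 was at 51.3, 48.5 and 47.2 TPM in the libraries labelled shMogat1, against 83.6, 78.5 and 80.6 TPM in those labelled shCTRL. The 2 groups did not overlap, and the difference of mean log2(TPM + 1) was -0.71 ± 0.04 (SE, limma adjusted p = 1.58e-05). Gzmb was at 156, 151 and 157 TPM in the libraries labelled shMogat1, against 244, 256 and 256 TPM in those labelled shCTRL. Its difference was -0.70 ± 0.03 (SE, limma adjusted p = 4.00e-06), again with no overlap. The ratio of Gzmb to Prf1, both in TPM, was 3.03 to 3.33 in the libraries labelled shMogat1 and 2.92 to 3.26 in those labelled shCTRL, so the ratios of the groups overlapped. Set against the T cell receptor chain Cd3e, Gzmb was at 31.4% to 32.4% of the Cd3e level in the libraries labelled shMogat1 and at 52.3% to 56.2% in those labelled shCTRL.

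**Figure D1:**
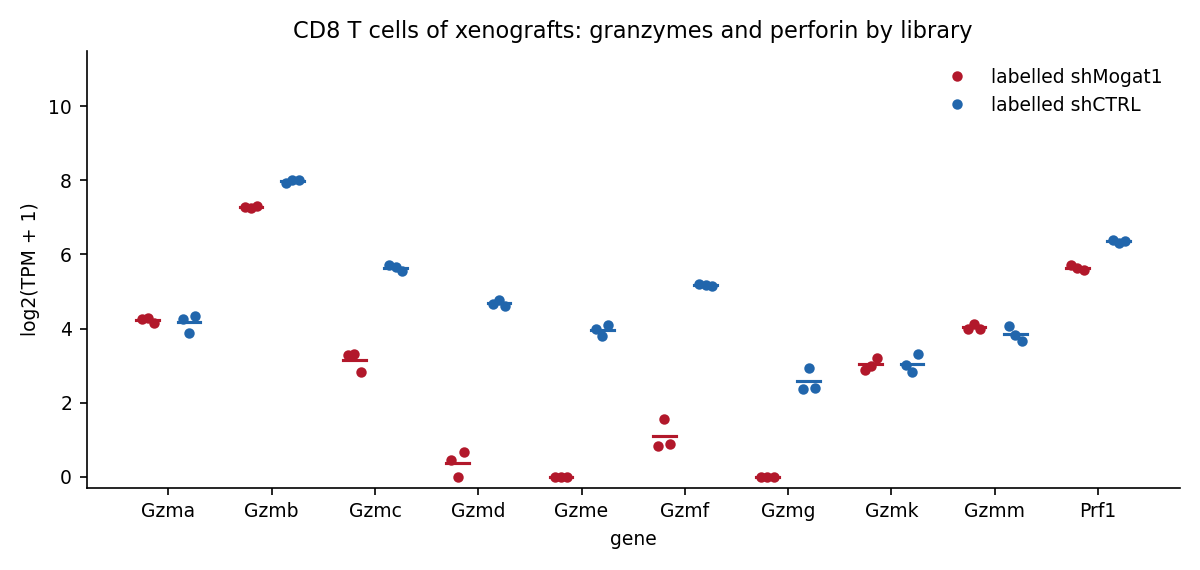
Level of each gene, as log2(TPM + 1), in CD8 T cells from xenografts labelled shMogat1 (red, left) and shCTRL (blue, right); points are libraries and bars are means of 3 libraries. Gzmb to Gzmg and Prf1 lie lower in every library labelled shMogat1, with Gzme and Gzmg listed at 0, whereas Gzma, Gzmk and Gzmm overlap between the labels.

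The granzymes next to Gzmb showed larger differences than Gzmb. Gzmc was at 8.72, 8.88 and 6.13 TPM in the libraries labelled shMogat1, against 52.0, 49.5 and 46.0 TPM in those labelled shCTRL, a difference of -2.51 ± 0.12 (SE, limma adjusted p = 4.71e-06). Gzmf was at 0.778, 1.96 and 0.837 TPM, or 8, 18 and 8 reads as recovered from the TPM steps, in the libraries labelled shMogat1. In those labelled shCTRL it was at 36.1, 35.4 and 34.4 TPM, or 459, 327 and 432 reads, and the difference was -4.09 ± 0.18 (SE, limma adjusted p = 2.98e-06). Gzmf passed the filter only with the help of the libraries labelled shCTRL, so its adjusted p supports no direction. For both genes the lowest library labelled shCTRL lay several times above the highest library labelled shMogat1.

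Gzmd, Gzme and Gzmg were at or close to 0 in the libraries labelled shMogat1. Gzmd was at 0.367, 0 and 0.592 TPM there (4, 0 and 6 reads), against 24.5, 26.2 and 23.6 TPM (330, 256 and 313 reads) in the libraries labelled shCTRL, a difference of -4.31 ± 0.16 (SE, limma adjusted p = 1.41e-06). Gzme was listed at 0 in all 3 libraries labelled shMogat1, against 14.9, 12.9 and 16.1 TPM in those labelled shCTRL. Of the values of 1 to 10 reads in these tables, 67.6% were even, so both mates of a fragment were often counted, and the limit for a gene at 0 was set at 3 fragments, or 6 reads, per library. Against that limit, which covers counting error only, Gzme was at least 22.7-fold lower in the libraries labelled shMogat1, with a limma adjusted p of 3.98e-07. Gzmg was likewise listed at 0 in the libraries labelled shMogat1, against 4.17, 6.70 and 4.30 TPM in those labelled shCTRL, which is at least 7.74-fold lower by the same limit (limma adjusted p = 2.31e-05). Both genes had whole reads in each library labelled shCTRL, 121 to 205 for Gzme and 53 to 62 for Gzmg. Since Gzmd, Gzme and Gzmg passed the filter through the libraries labelled shCTRL alone, their adjusted p-values support no direction.

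Summed over Gzmc to Gzmg, the level was 9.86, 10.8 and 7.56 TPM in the libraries labelled shMogat1, against 132, 130.6 and 124 TPM in those labelled shCTRL. Gzmd to Gzmg made up 11.6% to 18.9% of that sum in the libraries labelled shMogat1 and 60.5% to 63.0% in those labelled shCTRL. The 9 granzymes together came to 205, 204 and 204 TPM in the libraries labelled shMogat1 and to 416, 419.8 and 420.4 TPM in those labelled shCTRL. Gzmb held 74.1% to 76.8% of that total in the libraries labelled shMogat1 and 58.5% to 61.0% in those labelled shCTRL. Gzmb thus took a larger part of a smaller total in the libraries labelled shMogat1.

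Granzymes A, K and M, which lie on other chromosomes, overlapped between the labels and did not pass the test. Gzma was at 18.1, 18.5 and 16.7 TPM in the libraries labelled shMogat1, against 18.2, 13.8 and 19.3 TPM in those labelled shCTRL (difference 0.07 ± 0.12 SE, limma adjusted p = 0.681). Gzmk was at 6.36, 7.01 and 8.28 TPM in the libraries labelled shMogat1, against 7.05, 6.09 and 8.97 TPM in those labelled shCTRL (difference -0.02 ± 0.14 SE, limma adjusted p = 0.926). Gzmm was at 14.9, 16.5 and 14.8 TPM in the libraries labelled shMogat1, against 15.8, 13.2 and 11.6 TPM in those labelled shCTRL (difference 0.18 ± 0.11 SE, limma adjusted p = 0.197). Gzma was lower with array weights (-0.014) and Gzmk higher with median-of-ratios rescaling (0.028), so neither gene has a settled direction. Without shCTRL replicate 1 the Gzmm difference was 0.29 with a limma adjusted p of 0.0272, and Gzmm was also called with all libraries and array weights (0.0273).

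In order of mean TPM, the libraries labelled shMogat1 had Gzmb first, then Prf1, Gzma, Gzmm, Gzmc, Gzmk, Gzmf and Gzmd, with Gzme and Gzmg at 0; only Gzmc and Gzmk, and Gzmd, Gzme and Gzmg, overlapped with their neighbours. The libraries labelled shCTRL had Gzmb and Prf1 first as well, followed by Gzmc, Gzmf and Gzmd, which all stood clear of each other and of Gzma. Below these came Gzma, Gzme, Gzmm, Gzmk and Gzmg, where Gzmm lay clear of Gzmk and the other neighbours overlapped.

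Markers of other cell types moved with the labels in these CD8 T cell libraries. Of the 6 NK cell markers tested, 4 fell, and the summed level of all 7 was 73.5 to 78.6 TPM in the libraries labelled shMogat1 and 107 to 116 TPM in those labelled shCTRL, with none at 0 in either group. Eomes, which CD8 T cells also use, carried over 50% of that sum in each library; the other 6 summed to 29.3 to 32.4 TPM in the libraries labelled shMogat1 and to 45.4 to 49.2 TPM in those labelled shCTRL. Among them Ncr1, the NK receptor NKp46, was at 0.378 to 0.854 TPM in the libraries labelled shMogat1 and at 2.04 to 3.13 TPM in those labelled shCTRL. Of 7 dendritic cell markers 5 fell, with sums of 201 to 218 TPM in the libraries labelled shMogat1 and 337 to 342 TPM in those labelled shCTRL. The 6 fibroblast markers summed to 873 to 927 TPM in the libraries labelled shMogat1 and to 1833 to 1873 TPM in those labelled shCTRL, with 5 of the 6 lower. The 9 tumor epithelium markers, of which 7 rose and 1 fell, summed to 235 to 239 TPM in the libraries labelled shMogat1 and to 93.7 to 101 TPM in those labelled shCTRL. The 10 T cell markers summed to 4742 to 4751 TPM in the libraries labelled shMogat1 and to 4534 to 4726 TPM in those labelled shCTRL. Of 5 CD4 and regulatory T cell markers 3 rose and 1 fell, with sums of 302 to 316 TPM in the libraries labelled shMogat1 and 201 to 222 TPM in those labelled shCTRL. Macrophage and monocyte markers summed to 2335 to 2459 TPM in the libraries labelled shMogat1 and to 2122 to 2158 TPM in those labelled shCTRL. The median sums of B cell, endothelium and neutrophil markers were 27.6, 95.8 and 26.7 TPM in the libraries labelled shMogat1 and 25.1, 88.2 and 29.7 TPM in those labelled shCTRL, and of the neutrophil markers Ly6g and Elane were at 0 in all libraries labelled shMogat1. The part of these cells in the granzyme and perforin differences was not tested. In bulk libraries, fewer cells of a type and less RNA per cell cannot be told apart. When each library was scaled to the sum of 5 of its T cell markers, Cd3d, Cd3e, Cd3g, Cd8a and Cd8b1, the same count of 7 genes fell. Of all 13742 genes tested, 3626 fell under that scaling. The count includes Gzmd, Gzme, Gzmf and Gzmg, whose tests support no direction.

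Gzmb to Gzmg lie on the minus strand of chromosome 14, at chr14:56117626-56262260 of GRCm38 (mm10), with Gzmb at one end and Gzme at the other and Gzmn, listed at 0 in every library, between Gzmf and Gzmg. Prf1 (chr10:61297833-61304680) and Gzmm (chr10:79689020-79695261) lie on chromosome 10, and Gzma (chr13:113093825-113100981) and Gzmk (chr13:113171608-113225908) on chromosome 13. By distance of its start site from that of Gzmb, Gzmc lies at 27.6 kb, Gzmf at 50.8 kb, Gzmg at 103 kb, Gzmd at 130 kb and Gzme at 142 kb. The row of serine proteases goes on with 8 mast cell, neutrophil and related protease genes, up to Cma1 at 318 kb. Of the 4 such genes tested, 3 fell in the libraries labelled shMogat1: Mcpt1 by 2.29, Mcpt2 by 2.27 and Mcpt4 by 0.53 on the log2 scale, each at 8.77 TPM or less on average in either group. The mast cell markers, which include Mcpt4, summed to 20.1 to 24.1 TPM in the libraries labelled shMogat1 and 39.0 to 41.1 TPM in those labelled shCTRL.

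**Figure D2:**
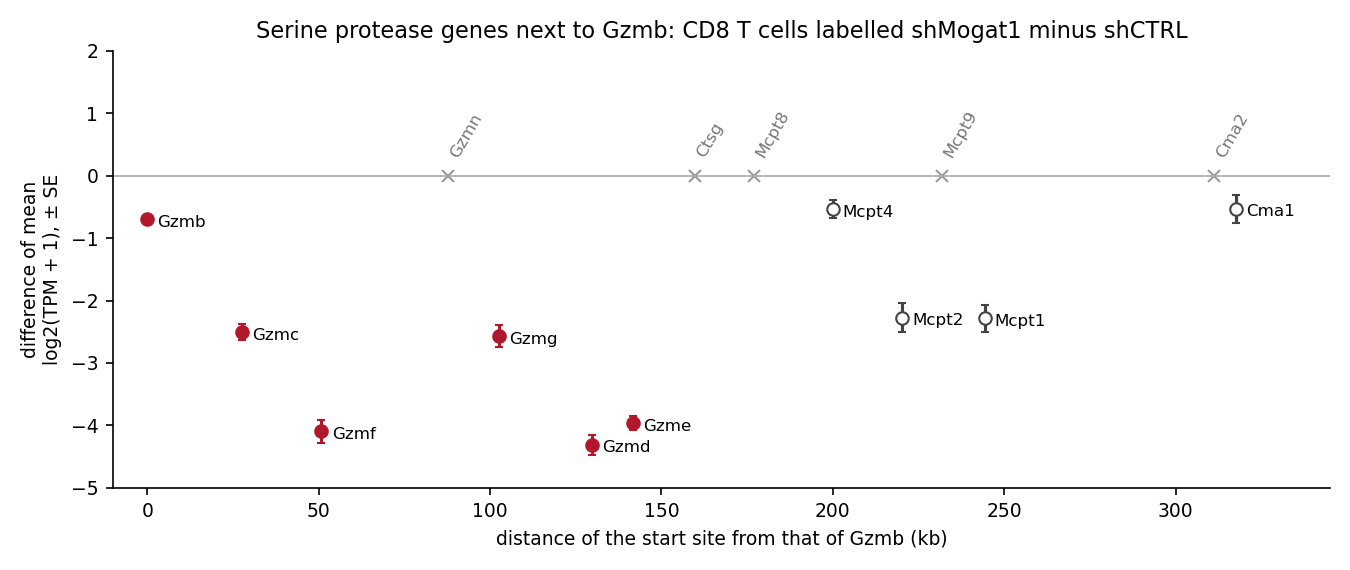
Difference of mean log2(TPM + 1) between CD8 T cells labelled shMogat1 and shCTRL, with its standard error, for the serine protease genes next to Gzmb, against the distance of their start sites from that of Gzmb. Filled red points are granzymes, open points other proteases and crosses genes not tested; Gzmf, Gzmd and Gzme lie near -4 and Gzmb at -0.70.

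The genes of this cluster are alike in sequence, which bears on how singly each can be read. Between the longest GENCODE transcripts, Gzmd and Gzme were identical at 94.8% of aligned bases, Gzmd and Gzmg at 90.1% and Gzmf and Gzmg at 88.7%, whereas Gzmc was 74.0% to 75.5% identical to Gzmd to Gzmg and Gzmb 68.3% to 76.2% identical to the others. Of all stretches of 50 bases in the Gzmd transcript, 21.9% also occurred in another granzyme, and for 100 bases the share was 0.231%. The read length and the treatment of reads that match several genes are not given in the sources used here. The split of reads among Gzmd, Gzme, Gzmf and Gzmg is therefore uncertain. Their sum is less open to that split, but reads left out for matching several genes would be missing from it too.

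For Gzmb to Gzmg, the 250 bases before the start site of each are shown, read 5′ to 3′ on the strand of the gene from RefSeq's GRCm38.p6 annotation. Capitals mark TGTGGT or its reverse complement ACCACA, the core letters of a RUNX site, TGACGTCA, the letters of a cyclic AMP response element, and TGANTCA, those of an AP-1 site. They span, in the order shown, chr14:56262335-56262584, chr14:56234658-56234907, chr14:56211408-56211657, chr14:56159580-56159829, chr14:56132594-56132843 and chr14:56120626-56120875.
Gzmb: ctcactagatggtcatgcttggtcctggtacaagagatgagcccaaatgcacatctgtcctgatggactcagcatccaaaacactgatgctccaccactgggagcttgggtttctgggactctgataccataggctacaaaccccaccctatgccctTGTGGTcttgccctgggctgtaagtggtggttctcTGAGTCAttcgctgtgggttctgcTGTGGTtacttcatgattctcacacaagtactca
Gzmc: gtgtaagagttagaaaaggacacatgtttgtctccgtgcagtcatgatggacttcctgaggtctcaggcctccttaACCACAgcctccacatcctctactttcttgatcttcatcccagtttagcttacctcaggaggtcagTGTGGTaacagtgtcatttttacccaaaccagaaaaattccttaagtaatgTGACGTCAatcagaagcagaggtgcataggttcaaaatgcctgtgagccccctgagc
Gzmf: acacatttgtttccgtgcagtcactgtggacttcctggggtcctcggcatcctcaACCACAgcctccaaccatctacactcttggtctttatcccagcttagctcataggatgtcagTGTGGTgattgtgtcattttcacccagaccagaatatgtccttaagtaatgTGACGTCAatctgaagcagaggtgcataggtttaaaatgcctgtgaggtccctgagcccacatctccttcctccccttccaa
Gzmg: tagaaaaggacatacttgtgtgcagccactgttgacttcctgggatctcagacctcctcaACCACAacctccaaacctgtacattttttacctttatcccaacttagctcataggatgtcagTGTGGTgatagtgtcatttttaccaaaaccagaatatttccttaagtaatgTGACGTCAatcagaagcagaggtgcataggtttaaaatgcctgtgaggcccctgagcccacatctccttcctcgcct
Gzmd: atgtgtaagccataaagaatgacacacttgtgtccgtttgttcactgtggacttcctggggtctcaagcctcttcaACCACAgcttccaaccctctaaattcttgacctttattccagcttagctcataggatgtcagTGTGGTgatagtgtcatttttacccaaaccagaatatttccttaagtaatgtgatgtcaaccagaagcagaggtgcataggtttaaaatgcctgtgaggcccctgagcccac
Gzme: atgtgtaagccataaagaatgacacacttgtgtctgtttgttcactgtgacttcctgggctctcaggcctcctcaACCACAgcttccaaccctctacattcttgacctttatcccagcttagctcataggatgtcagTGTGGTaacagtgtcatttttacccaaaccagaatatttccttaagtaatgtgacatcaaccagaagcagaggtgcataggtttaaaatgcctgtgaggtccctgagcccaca
Of the 32851 promoter windows of this length, 14% held the RUNX letters on either strand, among them all 6 shown and 9 of the 10 genes. TGACGTCA stood in 1.55% of windows and in those of Gzmc, Gzmf and Gzmg, while TGANTCA stood in 6.75% of windows and in that of Gzmb alone among the 10. The letters AGGTGT of a T-box site, on either strand, occurred in 11.8% of windows and in 3 of the 10, Gzma, Gzmk and Prf1. The promoters of Gzmd and Gzme were identical at 95.6% of aligned bases, and that of Gzmb was 57.1% to 65.5% identical to the other 5. Between pairs of Gzmc to Gzmg the promoters were 84.4% to 95.6% identical, so letters they share are not separate cases to set against the share of all windows. A match of letters describes the window and does not show a site in use.

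The partners of granzymes moved in both directions between the xenograft labels. Of the 16 genes of granule assembly and release tested, 2 rose and 3 fell (median -0.02), among them Srgn, the proteoglycan that holds granzymes in the granule, which averaged 375 ± 4.1 TPM in the libraries labelled shMogat1 and 274 ± 6.29 TPM in those labelled shCTRL (SD, n = 3 each). The rise was 0.45 on the log2 scale, and Nkg7, a granule membrane protein, fell by 0.17. Of 5 genes that activate granzymes or control that step, Ctsc, the cathepsin that removes the propeptide, rose by 0.35, and 3 fell, Ctsl by 0.92, Cst7 by 0.37 and Ctsh by 0.33 (median of the list -0.33). Cst7 encodes cystatin F, an inhibitor of cathepsins in these granules. Of 6 granzyme inhibitors 4 fell (median -0.25): Serpinb9b by 1.65, Serpinb6a by 0.55, Serpina3n by 0.38, and Serpinb9, a shield against granzyme B, by 0.12.

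Other killing molecules and regulators were also mixed. Of 5 killing ligands and cytokines, Lta and Ifng rose by 0.44 and 0.26 and Tnf fell by 0.36, while Fasl differed by -0.08 (limma adjusted p = 0.347; median of the list -0.04). Of 19 regulators 11 rose and 3 fell (median 0.16). Eomes, a T-box factor that drives granzyme and perforin genes, averaged 46.0 ± 1.78 TPM in the libraries labelled shMogat1 and 65.8 ± 3.57 TPM in those labelled shCTRL (SD, n = 3 each), a fall of 0.51 (limma adjusted p = 1.83e-04); it also counts among the NK cell markers. Tbx21, which encodes T-bet, differed by -0.15 (limma adjusted p = 0.1002) and Prdm1, which encodes Blimp-1, by -0.24 (limma adjusted p = 0.0711). The largest rises of the list were those of Stat5a at 0.67 and the cytokine receptor Il21r at 0.57, and Il18rap fell by 0.37.

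Over the growth of the tumors, granzyme B rose in CD8 T cells and perforin did not pass the test. With week 4 against week 2, 3 of the 7 genes tested rose, Gzma, Gzmb and Gzmf, where 10.3% of the 13350 genes tested rose, 7.18% fell and 17.5% changed in either direction. None fell with limma, and 1, Prf1, was lower at an unadjusted p under 0.05. Gzmd, Gzme and Gzmg never reached 1 TPM in any of the 9 libraries and were not tested. Gzmf passed the filter through weeks 3 and 4 alone, so its tests against week 2, and its part in the counts, support no direction. The median difference of the 7 was 2.04, against -0.01 over all genes tested.

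Gzmb was the most abundant granzyme at every week. It was at 99.96, 82.9 and 301 TPM at week 2, at 1034, 459.9 and 454 TPM at week 3 and at 1118, 1999.8 and 832 TPM at week 4. Each library of week 3 lay above each of week 2, and the weeks 3 and 4 overlapped. Week 4 against week 2 gave 3.17 ± 0.52 (SE, limma adjusted p = 0.00633), a ratio of mean TPM of 8.17, and the call held under each alternative setting and with any 1 library left out. Week 3 against week 2 gave 2.14 ± 0.52 (limma adjusted p = 0.239), and none of the 7 genes passed the test there, where 0.0449% of genes did, all of them higher; 3 of them were higher at an unadjusted p under 0.05. Week 4 against week 3 gave 1.03 ± 0.52 for Gzmb (limma adjusted p = 0.251), and again none of the 7 passed, where 2.67% of genes did (1.38% higher and 1.29% lower), with Prf1 alone at an unadjusted p under 0.05.

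Prf1 followed another course. It was at 64.8, 68.4 and 39.3 TPM at week 2, at 54.3, 65.7 and 57.1 TPM at week 3 and at 28.5, 37.3 and 44.4 TPM at week 4. Week 4 lay below week 3 in every library and overlapped with week 2, and week 4 against week 2 gave -0.62 ± 0.23 (SE, limma adjusted p = 0.0870). Without week 2 replicate 3 the difference was -0.86 with a limma adjusted p of 0.0167, and with all libraries Prf1 was called lower with array weights (limma adjusted p = 0.00299). The ratio of Gzmb to Prf1 in TPM was 1.54, 1.21 and 7.65 at week 2, 19.0, 6.995 and 7.95 at week 3, and 39.3, 53.6 and 18.8 at week 4. The ratio at week 4 lay above that of week 2 in every library, whereas it overlapped between the xenograft labels.

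**Figure D3:**
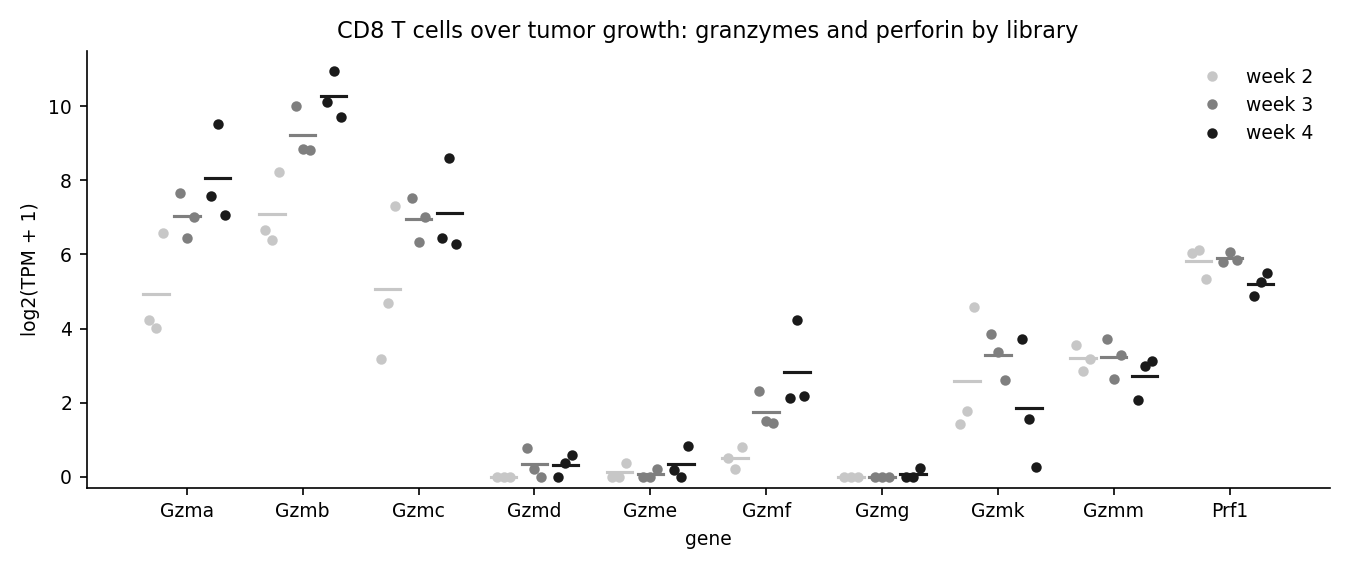
Level of each gene, as log2(TPM + 1), in CD8 T cells at weeks 2, 3 and 4 of tumor growth (light to dark); points are libraries and bars are means of 3 libraries. Gzma, Gzmb and Gzmf lie higher at week 4 than at week 2 in every library, Gzmd, Gzme and Gzmg lie close to 0, and Prf1 is lowest on average at week 4.

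Gzma was at 17.8, 15.1 and 94.5 TPM at week 2, at 202, 86.6 and 128 TPM at week 3 and at 192, 730.3 and 133 TPM at week 4. Week 4 against week 2 gave 3.12 ± 0.77 (SE, limma adjusted p = 0.0253), with no overlap. The call was lost without week 2 replicate 1 (limma adjusted p = 0.0854), week 2 replicate 2 (0.0898), week 4 replicate 2 (0.0561) or week 4 replicate 3 (0.0707), and over all alternatives the difference ran from 2.39 to 4.79. Week 4 replicate 3 had the highest Gzma, Gzmb, Gzmc and Gzmf of the 9 libraries.

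Of the granzymes next to Gzmb, Gzmc and Gzmf were measurable over the weeks. Gzmf was at 0.416, 0.156 and 0.753 TPM at week 2 (4, 2 and 10 reads), at 3.94, 1.82 and 1.74 TPM at week 3 (31, 22 and 22 reads) and at 3.35, 17.6 and 3.52 TPM at week 4 (48, 229 and 40 reads). Gzmf passed the filter through weeks 3 and 4 alone, so its test against week 2 supports no direction. Week 4 against week 2 gave 2.33 ± 0.52 (SE, limma adjusted p = 0.0188), and without week 2 replicate 1 or replicate 2 the adjusted p was 0.0560 or 0.0661. Gzmc was at 8.13, 24.8 and 158 TPM at week 2, at 183, 79.3 and 128 TPM at week 3 and at 85.4, 389 and 76.9 TPM at week 4. Its week 2 libraries spread more widely than the weeks differed, and week 4 against week 2 gave 2.04 ± 0.96 (SE, limma adjusted p = 0.162). Without week 2 replicate 3 the difference was 3.17 with a limma adjusted p of 0.0221.

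That week 2 library stood apart for other granzymes too, with the highest Gzma, Gzmb, Gzmc, Gzmf and Gzmk and the lowest Prf1 of its week. Gzmk was at 1.67, 2.42 and 23.1 TPM at week 2, at 13.6, 9.29 and 5.08 TPM at week 3 and at 12.2, 1.94 and 0.202 TPM at week 4, which overlap throughout (week 4 against week 2: -0.75 ± 0.97 SE, limma adjusted p = 0.610). Gzmm, at 10.8, 6.22 and 7.99 TPM at week 2, 12.3, 5.25 and 8.82 TPM at week 3 and 3.20, 6.87 and 7.73 TPM at week 4, overlapped likewise (-0.47 ± 0.35 SE, limma adjusted p = 0.365). Without week 2 replicate 3, Gzmk differed by 0.25 between weeks 4 and 2, the other direction.

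The 9 granzymes together came to 139, 132 and 586 TPM at week 2, to 1450.5, 642 and 726 TPM at week 3 and to 1414, 3146 and 1055 TPM at week 4. Gzmb held 51.3% to 72.0% of the total at week 2, 62.5% to 71.6% at week 3 and 63.6% to 79.1% at week 4, ranges that overlap. Gzmd to Gzmg made up 0.624% to 4.87% of the summed Gzmc to Gzmg at week 2, 1.46% to 2.48% at week 3 and 3.92% to 6.08% at week 4. These shares, ratios within a library, stand beside 60.5% to 63.0% in the CD8 T cells labelled shCTRL, from a table scaled separately; the sets differ in more than the week and were not tested against each other. In order of mean TPM, Gzmb, Gzma, Gzmc and Prf1 led at weeks 3 and 4, and Gzma and Gzmc overlapped there; at week 2 Gzmb, Gzmc, Prf1 and Gzma led and each overlapped with the next.

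**Figure D4:**
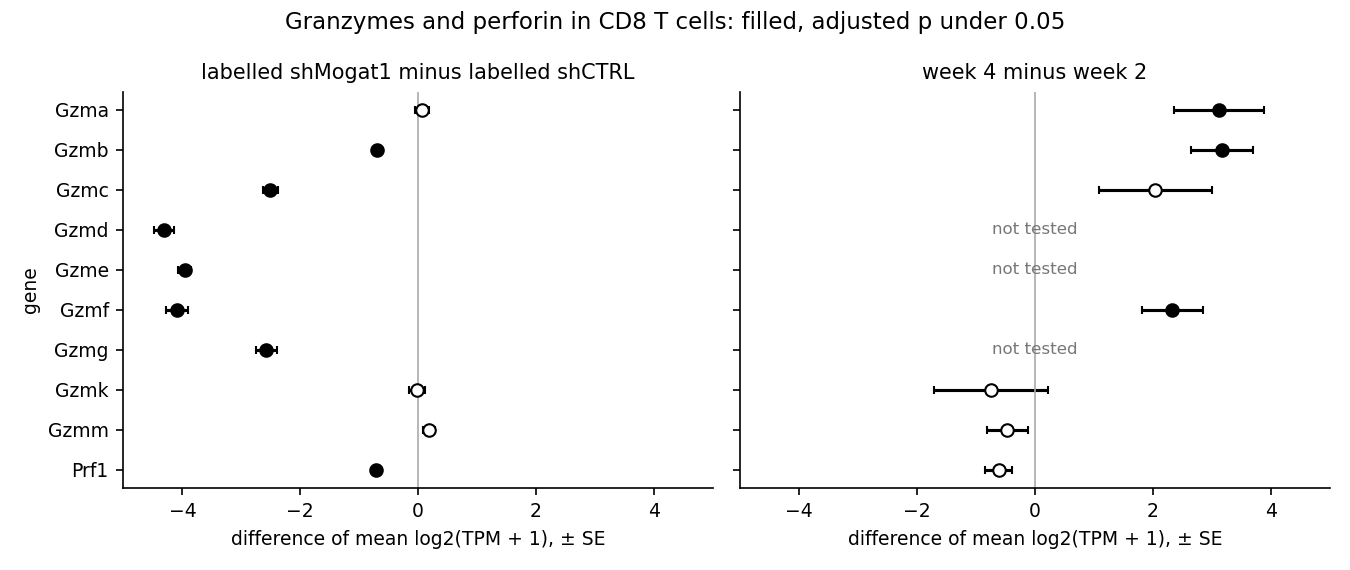
Difference of mean log2(TPM + 1), with its standard error, for each gene in CD8 T cells labelled shMogat1 minus shCTRL (left) and at week 4 minus week 2 (right); filled points have a limma adjusted p under 0.05. Left of zero in the first panel lie Gzmb to Gzmg and Prf1 as filled points, and in the second the filled points are Gzma, Gzmb and Gzmf, right of zero. Gzmd, Gzme and Gzmg (left) and Gzmf (right) passed the filter without the group where they are lower, so their calls support no direction. Gzmf on the left needed the libraries labelled shCTRL to pass it, so that call supports no direction either.

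Other killing molecules rose with Gzmb between weeks 2 and 4. All 5 killing ligands and cytokines passed the test (median 2.07): Ifng, which encodes interferon-gamma, averaged 271 ± 103 TPM at week 4 and 48.1 ± 27.7 TPM at week 2 (SD, n = 3 each), a rise of 2.54, Tnfsf10 rose by 2.42, Tnf by 2.07 and Fasl by 1.65. Of the 5 granzyme inhibitors tested 4 rose (median 1.27), Serpina3g by 1.65, Serpinb6b by 1.503, Serpinb9 by 1.27 and Serpinb6a by 1.18. Of the 5 genes of granzyme activation, Cst7 rose by 0.92 and Ctsc by 0.66, and of the 16 tested genes of granule assembly and release Nkg7 rose by 0.97, while Srgn differed by 0.29 (limma adjusted p = 0.110).

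Of 19 regulators 7 rose and 2 fell between weeks 2 and 4 (median 0.21). Tbx21 averaged 85.5 ± 17.0 TPM at week 4 and 28.2 ± 2.75 TPM at week 2 (SD, n = 3 each), a rise of 1.55 (limma adjusted p = 0.00594), and the receptor chain Il12rb2 rose by 1.80. Tcf7, which encodes a factor of naive and memory T cells, fell by 1.63, and Stat5a fell by 1.15. Eomes differed by -0.37 (limma adjusted p = 0.285) and Prdm1 by 0.56 (limma adjusted p = 0.0834). Of 2 tested proteases beyond the granzymes on chromosome 14, Mcpt4 fell by 2.54.

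Cell type markers in the libraries of the weeks varied as well. The 7 NK cell markers summed to 51.8 to 56.0 TPM at week 2, to 71.1 to 90.6 TPM at week 3 and to 54.4 to 92.4 TPM at week 4, and 1 of the 6 tested, Klre1, rose between weeks 2 and 4. Without Eomes the other 6 summed to 20.0 to 31.2 TPM at week 2, to 31.8 to 42.1 TPM at week 3 and to 34.5 to 59.4 TPM at week 4, so that weeks 2 and 4 did not overlap. The tumor epithelium markers summed to 77.7 to 119 TPM at week 2, to 139.5 to 243 TPM at week 3 and to 160 to 243 TPM at week 4. The T cell markers summed to 5605 to 6093 TPM at week 2, 5096 to 5952 TPM at week 3 and 5727 to 6353 TPM at week 4, and none of these markers was at 0 in a whole group. The CD4 and regulatory T cell markers summed to 215 to 322 TPM at week 2, to 211 to 294 TPM at week 3 and to 360.1 to 392 TPM at week 4. The fibroblast markers summed to 97.7 to 667 TPM at week 2, to 33.5 to 583 TPM at week 3 and to 43.8 to 53.8 TPM at week 4, and the endothelium markers to 102 to 128 TPM at week 2, 77.9 to 105 TPM at week 3 and 29.5 to 70.8 TPM at week 4. The neutrophil markers, with Ly6g and Elane at 0 in all 9 libraries, summed to 0.169 to 16.1 TPM at week 2, to 11.9 to 17.7 TPM at week 3 and to 18.1 to 64.8 TPM at week 4. The sums of tumor epithelium, CD4 and regulatory T cell, fibroblast, endothelium and neutrophil markers thus did not overlap between weeks 4 and 2, while those of B cell, dendritic cell, mast cell, gamma delta T cell and macrophage markers did. Macrophage and monocyte markers summed to 61.2 to 371 TPM at week 2, to 205 to 798 TPM at week 3 and to 296 to 437 TPM at week 4. The part of such cells in the granzyme differences was not tested. As a share of Cd3e, Gzmb was at 9.58% to 45.2% at week 2, 62.9% to 132% at week 3 and 130% to 279% at week 4. Scaling by the T cell markers Cd3d, Cd3e, Cd3g, Cd8a and Cd8b1 left Gzma, Gzmb and Gzmf called and added Prf1, lower by 0.79 with a limma adjusted p of 0.0480. Under that scaling 988 of all 13350 genes tested rose and 1838 fell, and the Gzmf call supports no direction.

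Among 9746 other genes with a mean of at least 5 TPM, the ones whose course over the 9 libraries of the weeks lay nearest to that of Gzmb were Sh2d1b1, Tnni1, Cd244, Klrb1f and Fcer1g. Their root mean square differences from Gzmb, after centring log2(TPM + 1), were 0.309, 0.336, 0.340, 0.344 and 0.375, where Gzmb itself had a standard deviation of 1.47. Nearest to the sum of Gzmc to Gzmg were Fcer1g, Krt83, S1pr3, Tnni1 and Upp1, at 0.670 to 0.734, so no gene followed that sum as closely. Between the xenograft labels these genes did not share 1 direction: Klrb1f and Upp1 fell by 0.38 and 0.90, and Fcer1g and Krt83 rose by 0.16 and 0.64.

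In the tumor cell libraries granzymes and perforin were scarce. Over the weeks 4 of the 10 genes were tested, and with week 4 against week 2 Gzmb and Gzmm fell, where 17.1% of the 14770 genes tested fell, 29.2% rose and 46.3% changed in either direction. Gzmb was at 1.83, 3.92, 1.22 and 0.974 TPM at week 4, against 10.2, 2.08 and 6.92 TPM at week 2 (difference -1.21 ± 0.43 SE, limma adjusted p = 0.0364). The call was lost without any 1 of week 2 replicates 1 and 3 and week 4 replicates 1, 3 and 4, with adjusted p between 0.0637 and 0.135. Without week 4 replicate 1 Gzmc was called in its place, at -1.27 (limma adjusted p = 0.0257). The week 4 libraries left then held Gzmc at 0.316, 0 and 0.155 TPM. Gzmc thus passed the filter through weeks 2 and 3 alone, and its call supports no direction. Gzmm was at 1.35, 1.08, 0.851 and 0.719 TPM at week 4, against 2.34, 3.00 and 2.43 TPM at week 2 (-0.85 ± 0.17 SE, limma adjusted p = 0.00214), with no overlap. T cell markers summed to 18.2 to 42.9 TPM at week 4 and to 77.3 to 263 TPM at week 2 in these libraries, and their part in the falls was not tested. Scaled to Cd3d, Cd3e, Cd3g, Cd8a and Cd8b1 of these markers, which moved the median of all genes to 2.20, Gzmb and Gzmm turned to 0.57 and 0.56, neither of them called.

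In the tumor cells of the xenografts only Gzmb was tested. It passed the filter through the libraries labelled shMogat1 alone, so it could enter the test only by being higher there, and its test and count support no direction. It was at 1.81, 1.27 and 1.90 TPM in the libraries labelled shMogat1, against 0.380, 0.698 and 0.209 TPM in those labelled shCTRL, a difference of 0.90 ± 0.17 (SE, limma adjusted p = 0.00258), where 34.6% of the 12936 genes tested rose, 19.9% fell and 54.5% changed in either direction. T cell markers summed to 17.4 to 18.1 TPM in the libraries labelled shMogat1 and to 4.35 to 6.72 TPM in those labelled shCTRL. The NK cell receptor gene Klra4 alone was at 15.6 to 17.4 TPM in the libraries labelled shMogat1 and at 59.6 to 64.5 TPM in those labelled shCTRL, while the other 6 NK cell markers summed to 1.94 to 2.32 TPM in the libraries labelled shMogat1 and to 0.977 to 1.94 TPM in those labelled shCTRL. The part of such cells in the Gzmb difference was not tested. Scaled to the T cell markers Cd3d, Cd3e, Cd3g, Cd8a and Cd8b1, which moved the median of all genes to -2.05, Gzmb turned to -0.090 and was not called. With any 1 library labelled shMogat1 left out Gzmb no longer passed the filter. Gzmk, Gzmf and Gzmg were listed at 0 in all 6 of these libraries, and Prf1 stayed under 0.5 TPM.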

How the data were processed

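RNA from 32 libraries was sequenced from stranded mRNA kits, per the labels' protocols. Read checks, trimming and alignment used FastQC, Trim Galore and HISAT2 on mm10, according to the submitters' processing notes; counter, annotation and gene lengths are not given in the sources used here. The values are TPM as the authors deposited them, in 4 tables scaled separately, so tests stayed within a table. Per table, 27 rows whose symbol had turned into a date were dropped, with at most 0.184% of the TPM of a library.

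Tests were made in R 4.3.3 with limma 3.58.1 (lmFit, eBayes with trend) on log2(TPM + 1), which understates changes of low genes. Genes reaching 1 TPM in 3 libraries of a table entered 1 fit over all its groups, and p-values were adjusted by Benjamini-Hochberg over all of them, with a threshold of 0.05. The fit was checked on simulated data. Whole reads were recovered from the steps between TPM values, within 0.05 of a read, and served only to describe depth and low values; no count test was run. GENCODE M21 gave positions and transcripts, and RefSeq the promoters. Python 3.11.15, pandas 2.3.3 and matplotlib 3.10.9 made tables and plots.

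The 10 genes, the lists of partners and the cell type markers were chosen with earlier results of these data known. Named are all 10 genes, up to 3 called genes with the largest difference per list, Tbx21, Eomes, Prdm1, Srgn, Ctsc, Serpinb9, Fasl and Ifng, and the 5 genes nearest in course to Gzmb and to the sum of Gzmc to Gzmg; further list members were named after their values were seen. Alternatives were another pseudocount, 2 other filters, 3 rescalings, array weights, a replicate block, leaving out each library, and only the 2 groups compared. The rescaling named T cell marker scaling used the sum of Cd3d, Cd3e, Cd3g, Cd8a and Cd8b1. Trdc and Tcrg-C1, of the gamma delta T cell list, had no row and were not analysed here; that list's other markers summed to 11.5 to 12.4 TPM in CD8 T cells labelled shMogat1 and 17.6 to 18.5 TPM in those labelled shCTRL.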

Additional observations from a re-analysis of the deposited data

Results flagged for a closer look

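Gzmb moved in opposite directions in the 2 cell types under both contrasts, which was not tested as a difference between them, since the tables were scaled separately. Between weeks 4 and 2 it was higher in every CD8 T cell library of week 4 than the week 2 mean and lower in every tumor cell library of week 4, a gap between the log2 differences of 4.38. Between the xenograft labels it was lower in every CD8 T cell library labelled shMogat1 than the shCTRL mean and higher in every tumor cell library labelled shMogat1, a gap of -1.61. With T cell marker scaling the tumor cell differences turned to 0.57 and -0.090, the directions seen in CD8 T cells, and neither was called. That scaling moved the median of all genes to 2.20 and -2.05, so a turn of sign under it supports no direction. T cell markers in the tumor cell libraries were lower at week 4 than at week 2 and higher under the label shMogat1. Their part in these differences was not tested. The tumor cell Gzmb of the xenografts passed the filter only through the libraries labelled shMogat1. Of 8 sets of 4 values, the 4 genes tested in tumor cells at week 3 and at week 4, 2 held a library far from the rest, both for Gzmc: week 3 replicate 4 at 7.24 TPM and week 4 replicate 1 at 2.40 TPM. Chance alone gives about 1 such library in 20 sets.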

How the results depend on the processing

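Over 305 refits of 22 gene differences, 267 kept their direction and their side of the threshold, 17 lost a call, 9 gained one and 12 changed sign. In CD8 T cells labelled shMogat1 against shCTRL, 6 to 8 genes were called under every other setting and 4 to 7 with a library left out, 4 without shCTRL replicate 3 or 4, since Gzmd, Gzme and Gzmg then failed the filter. The replicate block, with 7 called, changed no call there. Sign changes there were those of genes never called: Gzma was -0.014 with array weights (-0.074 to 0.16 with a library left out), and Gzmk was 0.028 with median-of-ratios rescaling, 0.15 with quantile normalization and 0.13 with the replicate block (-0.13 to 0.12 with a library left out). For week 4 against week 2, 1 gene was called without week 2 replicate 1 or 2 and 5 without week 2 replicate 3, and array weights, whose fit did not fully converge, called 5; Gzma also lost its call with no filter (limma adjusted p = 0.0580) or only the 2 groups compared (0.0564), and Gzmk ran from -1.68 to 0.25 with a library left out. Array weights called 2 genes for week 3 against week 2 and 5 for week 4 against week 3, where T cell marker scaling called 1. In tumor cells, week 4 against week 2 called 1 gene in place of 2 with the 5 TPM filter, array weights, the replicate block or only the 2 groups compared, 1 without week 2 replicate 1 or 3 or week 4 replicate 3 or 4, and 0 with T cell marker scaling, where Gzmb was 0.57 and Gzmm 0.56. For tumor cells labelled shMogat1 against shCTRL, the 5 TPM filter and T cell marker scaling called 0, Gzmb was -0.090 under that scaling, and leaving out any 1 of the 3 shMogat1 libraries also left 0, since Gzmb then failed the filter (1 without any 1 of the shCTRL libraries). T cell marker scaling gave all genes a median of 2.20 and -2.05 in these tumor comparisons and of -0.37 in CD8 T cells for week 4 against week 3. The cause of the other changes was not tested.

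Of all genes, 2335 were called in CD8 T cells for week 4 against week 2 (5910 with array weights, 1422 with the block, 1333 with only the 2 groups, 928 to 3115 with a library left out). For week 3 against week 2 the 6 calls became 869 with array weights and 0 with the block. For week 4 against week 3 the 356 became 234 with no filter, 605 with quantile normalization, 3023 with T cell marker scaling, 3661 with array weights, 3 with the block and 46 to 630 with a library left out. In tumor cells T cell marker scaling called 13175 in place of 6843 for week 4 against week 2 and 12428 in place of 7052 for shMogat1 against shCTRL. Those 6843 calls split into 4318 higher and 2525 lower, or 3544 and 3425 with median-of-ratios rescaling and 13038 and 137 with T cell marker scaling; those 7052 split into 4479 and 2573, or 3124 and 3758 with median-of-ratios rescaling, 3245 and 3283 with quantile normalization and 142 and 12286 with T cell marker scaling. Calls in CD8 T cells labelled shMogat1 against shCTRL split into 2279 higher and 3599 lower, or 3006 and 2980 with median-of-ratios rescaling and 3186 and 2719 with quantile normalization; for week 4 against week 2 the split of 1377 and 958 became 1300 and 1416 with quantile normalization and 988 and 1838 with T cell marker scaling. Deviations of same-numbered libraries correlated at -0.24 to 0.43 in CD8 T cells over the weeks and at 0.03 to 0.05 in those of the xenografts. Differently numbered libraries gave -0.43 to 0.45 and -0.10 to 0.08. With only 6 and 2 same-numbered pairs, these values cannot show whether the numbers pair samples. Below about 1 TPM a value rests on few reads, which limits what can be said of Gzmd, Gzme and Gzmg over the weeks.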
